A study of Mus musculus with 14 samples.

Results

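The transcripts described here encode 2 chains of the collagen fibrils of connective tissue, Col1a2 and Col5a2, and 2 enzymes that modify collagen, the lysyl oxidase Lox and the prolyl 4-hydroxylase subunit P4ha1. They are defined by gene symbol, but they were proposed with earlier results of these data known, so their ranks among all transcripts are descriptions. Each gene has 1 transcript among the 1399 Ensembl transcripts that the deposited count tables list for all 14 libraries, so the 4 transcripts are 4 of 1399. They were measured by RNA sequencing in mouse embryonic fibroblasts (MEF), all of wild-type genotype by the labels, in 7 groups of 2 libraries. The groups were cells starved of cysteine (Cys), cells under full amino acid starvation (AA) and untreated cells (NT), then cells treated with cysteamine, cells transfected with sh-CTNS together with a CTNS plasmid (rescue), cells transfected with sh-CTNS alone (knockdown) and a further untreated group (NT2). CTNS encodes cystinosin, the exporter of lysosomal cystine, and cysteamine is a drug that empties lysosomes of cystine by another route. The labels give no time, dose or control shRNA, do not say which untreated group belongs to which treatment, and give no source culture for the libraries of a pair. NT was taken as the control of the starvations and NT2 as that of the other treatments, from the naming. By the same assumption, the libraries of NT, Cys and AA are called the first experiment here and the others the second. The p-values measure the spread between libraries, which may be technical. Ctns itself was not analysed here, so the knockdown is called by its label.

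Fibrillar collagen is made in the endoplasmic reticulum, where 3 procollagen chains wind into a triple helix. Prolyl 4-hydroxylase, of which P4ha1 is the catalytic subunit and P4hb the other, first hydroxylates prolines that keep the helix stable at body temperature. After secretion and trimming, the molecules assemble into fibrils, type V collagen helps to start and to limit the width of type I fibrils, and Lox, a copper enzyme outside the cell, oxidises lysines so that the fibrils become cross-linked. Fibroblasts are the main makers of these fibrils.

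Promoter sequence was at hand for Col1a2 and P4ha1, 2 of the 4 genes, from the RefSeq promoter table on GRCm38.p6. These 2 genes moved in opposite directions in the knockdown, and the part of their promoters in that was not tested. The stretches upstream of the listed transcript starts are shown, 125 bases for Col1a2 and 250 for P4ha1. Both read 5′ to 3′ on the plus strand, at chr6:4505368-4505492 and chr10:59323046-59323295, and capitals mark matches to GGGCGG (Sp1 box), GCGTG or ACGTG (hypoxia-response core; CACGT on this strand is ACGTG on the other) within the stretches.
Col1a2: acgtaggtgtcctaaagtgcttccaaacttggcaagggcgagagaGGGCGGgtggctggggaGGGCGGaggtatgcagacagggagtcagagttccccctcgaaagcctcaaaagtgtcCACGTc
P4ha1: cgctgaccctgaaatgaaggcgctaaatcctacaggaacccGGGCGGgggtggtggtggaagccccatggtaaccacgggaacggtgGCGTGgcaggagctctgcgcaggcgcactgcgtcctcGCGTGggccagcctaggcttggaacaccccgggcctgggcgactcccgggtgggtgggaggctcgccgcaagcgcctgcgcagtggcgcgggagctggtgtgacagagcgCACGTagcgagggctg
The searches covered both strands of the full windows of 300 bases. ACGTG was in 19.6% of all 32851 windows of the table, GCGTG in 32.4% and GGGCGG in 35.7%. Not within the printed stretches were 1 more match to ACGTG in the Col1a2 window and 1 to GGGCGG in the P4ha1 window, both on the minus strand. CCAAT (NF-Y box), in 37.4% of windows, matched once on each strand in the Col1a2 window, outside the printed stretch, and not in that of P4ha1. Neither window held TGANTCA (AP-1), in 7.81% of windows, or TGATGNAAN (amino acid response element), in 3.95%. These are matches of letters, and no binding was measured.

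The listed transcripts were ENSMUST00000031668 for Col1a2 (chromosome 6, 52 exons, 5348 nt), ENSMUST00000086430 for Col5a2 (chromosome 1, 54 exons, 6625 nt), ENSMUST00000025409 for Lox (chromosome 18, 7 exons, 4741 nt) and ENSMUST00000009789 for P4ha1 (chromosome 10, 15 exons, 4043 nt), by the GENCODE M21 annotation of GRCm38. A check of every 30-base word found 1 of 5319 words of Col1a2, 0 of 6596 of Col5a2, 3 of 4712 of Lox and 6 of 4014 of P4ha1 in a transcript of another gene. The 3 words of Lox were shared with its relative Loxl1. Between 29.7% (Col5a2) and 93.4% (Lox) of the words also lay in other transcripts of the same gene, so a count stands for the gene more safely than for the one transcript. Lox shares 30 exon bases with the antisense gene AC161119.1, and counts in them cannot be assigned, since the strand of counting is not stated.

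Libraries were shallow over the listed transcripts, with 25697 to 51224 counts in the 6 libraries of NT, Cys and AA and 64530 to 165747 in the other 8. Levels are given as CPM, the count over the library's sum of listed transcripts, scaled by trimmed mean of M-values (TMM), with factors of 0.397 to 1.18 in the first 6 libraries and of up to 1.55 in the other 8. The libraries differed in the weight of 341 transcripts whose count in NT relative to NT2 was more than 2 times the median of that ratio, called tracking transcripts here. Since they were chosen for being low in NT2 relative to NT, that choice itself pushes their changes against NT2 upward and those against NT downward. They took 37.6% to 86.8% of counts in the first 6 libraries and 9.38% to 41.8% in the other 8, and the second NT library stood highest. P4ha1 is one of them, with a ratio of 6.08 times the median, while Col1a2 (0.63), Col5a2 (0.69) and Lox (0.60) are not. Of 15 fibroblast markers 9 were listed. Of other cell types only Cdh1 (epithelial, 1 of 7), Ctrb1 (pancreatic acinar, 1 of 6) and Ttn (muscle, 1 of 6) were listed, all tracking transcripts, and no endothelial (of 4), haematopoietic (of 6) or neural (of 5) marker was.

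**Figure D1:**
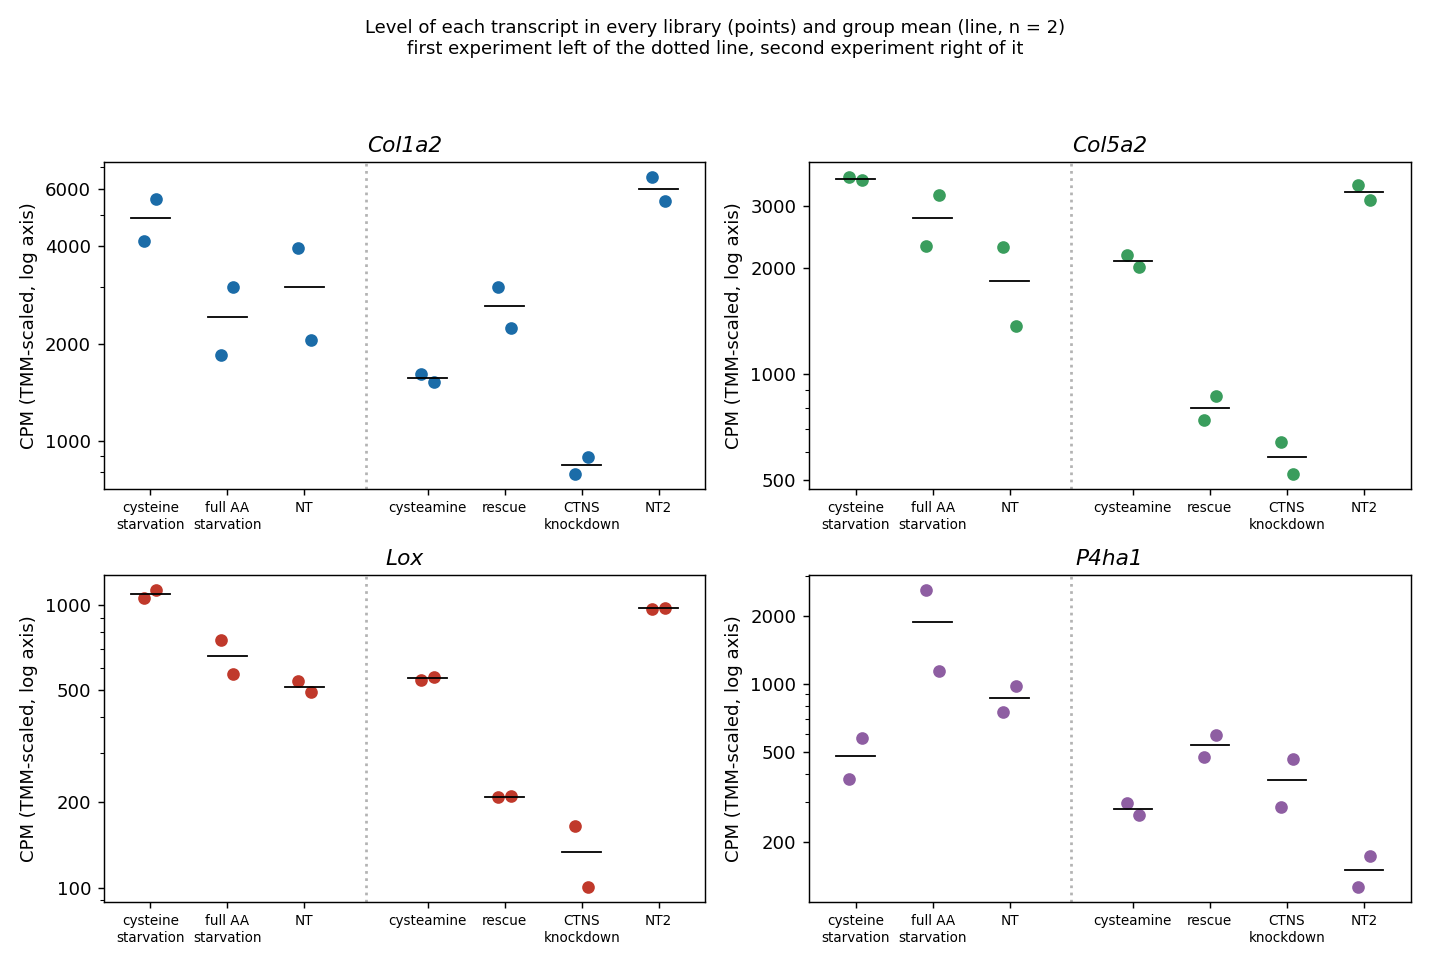
Level of Col1a2, Col5a2, Lox and P4ha1 in each of the 14 libraries, in TMM-scaled CPM on a log axis; points are libraries and the line is the mean of the 2 libraries of a group. Col1a2, Col5a2 and Lox are lowest in the knockdown, while P4ha1 is lowest in NT2, at 127 and 174 CPM.

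Per kilobase of transcript, which lets genes be compared, Col1a2 was the most abundant of the 4 in NT2 cells, at 1126 ± 134 CPM per kb (SD, n = 2 for this and the next values). Col5a2 stood at 495 ± 35.0, Lox at 205 ± 1.17 and P4ha1 at 37.2 ± 8.32 CPM per kb in NT2. In knockdown cells the order was different. Col1a2 stood at 158 ± 13.8, P4ha1 at 93.0 ± 31.4, Col5a2 at 87.6 ± 12.8 and Lox at 28.1 ± 9.73 CPM per kb there.

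Knockdown compared with NT2 addresses what an shRNA against the lysosomal cystine exporter does to these genes. The 2 fibrillar chains and Lox fell to between 13.7% and 17.7% of their NT2 level, and P4ha1 rose. Of all 1399 transcripts, 30.8% passed an adjusted p of 0.05 in this comparison (13.2% lower, 17.6% higher), so a call alone was common. Among the 1399 log2 fold changes, Col1a2 had the lowest, Lox ranked 2 and Col5a2 ranked 4 from the bottom. These ranks are descriptions, since the genes were proposed with earlier results of these data known.

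Col1a2, the smaller partner chain of type I collagen, had 791 and 895 CPM in knockdown libraries, against 6529 and 5518 CPM in NT2 libraries. These rest on 105 and 98 counts in the knockdown and 1649 and 1140 in NT2. Both knockdown libraries lay far below both NT2 libraries, at a mean of 14% of the NT2 mean. The log2 fold change was -2.84 ± 0.35 (SE), with an adjusted p of 5.31e-05 in the quasi-likelihood test of edgeR, adjusted over all 1399 transcripts by Benjamini-Hochberg, which is the test behind the adjusted p-values given here unless another is named.

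Col5a2, a chain of type V collagen, had 640 and 521 CPM in knockdown libraries, against 3441 and 3113 CPM in NT2 libraries. The groups did not overlap, and the knockdown mean was 17.7% of the NT2 mean. The log2 fold change was -2.49 ± 0.28 (adjusted p = 2.74e-05). Lox had 166 and 100 CPM in knockdown libraries, against 970 and 978 CPM in NT2 libraries, or 22 and 11 counts against 245 and 202. Both knockdown values lay far below both NT2 values, at a mean of 13.7% of NT2. Its log2 fold change of -2.83 ± 0.21 had the smallest p of the 1399 transcripts (adjusted p = 7.10e-07).

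P4ha1 went the other way. It had 286 and 466 CPM in knockdown libraries, against 127 and 174 CPM in NT2 libraries, or 38 and 51 counts against 32 and 36. The groups did not overlap, but the 2 knockdown libraries differed from each other more than the nearest libraries of the groups did. The log2 fold change was 1.31 ± 0.33 (adjusted p = 0.00834). The median of the 341 tracking transcripts was 1.32, a value that the way they were chosen, P4ha1 included, in part builds in. The tracking share was 32.7% and 32.0% in knockdown libraries, against 9.38% and 9.59% in NT2 libraries, and its part in the result was not tested. The call was lost without the first NT2 library (adjusted p = 0.0965) or the second knockdown library (0.129).

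The 4 transcripts did not overlap between knockdown and NT2, which held for 71.8% of all transcripts. The calls of Col1a2, Col5a2 and Lox held in every alternative fit run, leave-one-out fits included. The fall was wider than these genes. Summed over the 7 listed fibroblast markers other than Col1a2 and Col5a2, the level was 10758 to 10802 CPM in knockdown libraries, against 29761 to 31848 CPM in NT2 libraries, most of it Fn1 and Col1a1 in NT2. Of the 9 listed markers, Col1a2 and Col5a2 included, 8 fell, where 13.2% of all transcripts did, and 9 were below 0. In bulk RNA, fewer cells of a type and less RNA per cell cannot be told apart, and the part of this marker sum in the result was not tested.

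**Figure D2:**
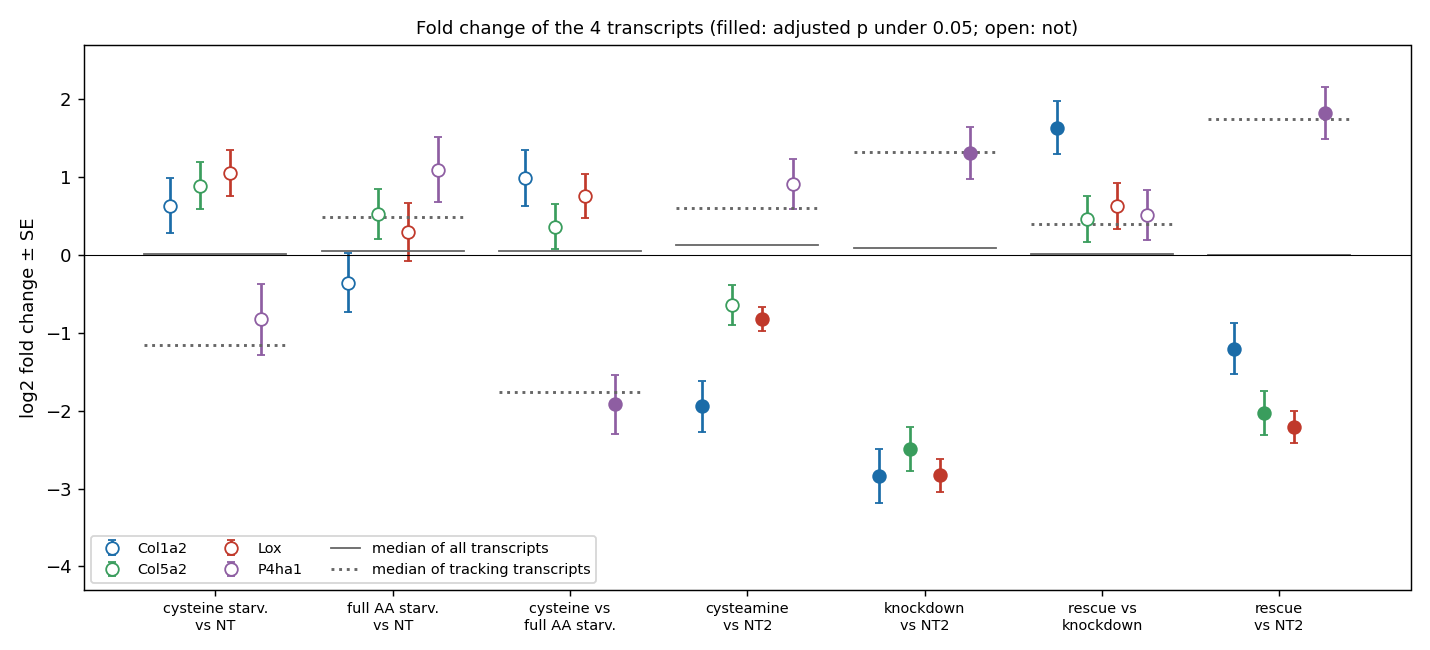
Log2 fold change ± SE of the 4 transcripts in each of the 7 comparisons; filled points passed an adjusted p of 0.05, the solid grey line is the median of all 1399 transcripts and the dotted line that of the 341 tracking transcripts. The knockdown gives the lowest values for Col1a2, Col5a2 and Lox, and P4ha1 lies near the dotted line in the knockdown and the rescue, at 1.31 and 1.82 beside 1.32 and 1.74, which the choice of the tracking transcripts in part builds in.

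The rescue asks which of these changes are undone when CTNS is supplied beside the shRNA. Against the knockdown, Col1a2 rose about 3-fold, while the other 3 transcripts did not pass. Of all transcripts 0.643%, 9 in all and each higher in the rescue, passed in this comparison. The count of 9 became 1 to 4 in the leave-one-out fits and 2 with library totals, while DESeq2 called 12 higher and 7 lower. Against NT2, the rescue was still lower for Col1a2, Col5a2 and Lox and higher for P4ha1.

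Col1a2 had 2986 and 2229 CPM in rescue libraries, against 791 and 895 CPM in knockdown libraries. Both rescue libraries were higher than both knockdown libraries, with a log2 fold change of 1.63 ± 0.34 (adjusted p = 0.0422). This call was close to the threshold. It was lost in each of the 8 fits that left out 1 library (adjusted p = 0.0874 to 0.398), where the fold change ranged over 1.41 to 1.82, and also when library totals replaced TMM (0.241).

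Col5a2 had 739 and 867 CPM in rescue libraries, against 640 and 521 CPM in knockdown libraries. The groups did not overlap, as for 48% of all transcripts, and the log2 fold change was 0.46 ± 0.29 (95% interval -0.16 to 1.08, adjusted p = 0.537). Lox had 209 and 211 CPM in rescue libraries, against 166 and 100 CPM in knockdown libraries, and a log2 fold change of 0.62 ± 0.30 (95% interval -0.0047 to 1.25, adjusted p = 0.451). These values rest on 39 counts in the rescue and 33 in the knockdown. Counting error alone exceeds that SE, so the interval is too narrow. P4ha1 had 474 and 595 CPM in rescue libraries, against 286 and 466 CPM in knockdown libraries. Its log2 fold change was 0.51 ± 0.32 (95% interval -0.16 to 1.18, adjusted p = 0.530), and the nearest libraries of its groups were almost level.

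Set against NT2, all 4 transcripts passed in the rescue, where 31.5% of all transcripts did (12.9% lower, 18.7% higher), and none of the 4 overlapped between the groups, as for 68.4% of all. Col1a2 in rescue cells averaged 43.3% of NT2, with a log2 fold change of -1.21 ± 0.33 (adjusted p = 0.0104). This call was lost without the first NT2 library (log2 fold change -1.08) or the second rescue library (-1.01). It was also lost with NT as the control (-0.27, adjusted p = 0.746). Col5a2 averaged 24.5% of NT2 (-2.03 ± 0.28, adjusted p = 7.31e-05) and Lox 21.5% (-2.21 ± 0.21, adjusted p = 9.32e-06), and ranked 5 and 2 from the lowest fold change of all transcripts. P4ha1 averaged 355% of NT2 (1.82 ± 0.33, adjusted p = 0.000685), beside a median of 1.74 for the tracking transcripts, which took 41.8% and 39.4% of counts in rescue libraries. The 7 other fibroblast markers summed to 16871 to 17155 CPM in rescue libraries, against 29761 to 31848 CPM in NT2 libraries. The part of the tracking share and of this sum in the results was not tested.

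The ratio of Col1a2 to Col5a2 counts within a library, which no scaling can change, set the rescue apart. It was 4.04 and 2.57 in rescue libraries, against 1.24 and 1.72 in knockdown libraries and 1.90 and 1.77 in NT2 libraries. Both rescue libraries were above all other libraries of the study. With 2 libraries against 2, an exact permutation test cannot go below a two-sided p of 0.333, so the ratio is given as a description.

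Cysteamine compared with NT2 addresses depletion of lysosomal cystine by a drug. Col1a2 and Lox fell, Col1a2 to 26.0% of the NT2 mean and Lox to 56.5%. Col5a2 and P4ha1 did not pass. Of all transcripts 10.5% passed here (5% lower, 5.5% higher), and Col1a2 had the fold change ranked 2 from the lowest.

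Col1a2 had 1612 and 1521 CPM in cysteamine libraries, against 6529 and 5518 CPM in NT2 libraries. The 2 cysteamine values lay close together, well below both NT2 values. The log2 fold change was -1.94 ± 0.33 (adjusted p = 0.00218), and the call was lost when the first (0.0561) or the second cysteamine library (0.0646) was left out. Lox had 544 and 556 CPM in cysteamine libraries, against 970 and 978 CPM in NT2 libraries. Spread within either group was small beside the gap, with a log2 fold change of -0.82 ± 0.16 (adjusted p = 0.00374). This call was lost in 4 of the 8 leave-one-out fits, those without either cysteamine library (0.0984 and 0.0865) or either NT2 library (0.0670 and 0.0748), while the fold change stayed within -0.84 to -0.81.

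Col5a2 had 2178 and 2010 CPM in cysteamine libraries, against 3441 and 3113 CPM in NT2 libraries. The groups did not overlap, as for 66% of all transcripts, but the log2 fold change of -0.65 ± 0.26 did not pass (adjusted p = 0.121). It passed in a fit of the 8 libraries of this experiment alone (0.000704), with DESeq2 (0.00342) and without the tracking transcripts (0.000405). P4ha1 had 299 and 262 CPM in cysteamine libraries, against 127 and 174 CPM in NT2 libraries. Its groups were apart too, and the log2 fold change of 0.91 ± 0.32 did not pass (adjusted p = 0.0820). It passed in the fit of the 8 libraries alone (0.0237) and with a replicate block (0.0427). The tracking share was 17.4% and 16.3% in cysteamine libraries, against 9.38% and 9.59% in NT2 libraries, and their median log2 fold change was 0.60; its part in the result was not tested. The 7 other fibroblast markers summed to 20596 to 21469 CPM in cysteamine libraries, against 29761 to 31848 CPM in NT2 libraries, and the part of that was not tested either. The listed markers did not move as one. Of all 9, 2 fell, where 5% of all transcripts did, 7 were below 0 and 2 above it. Among those above 0 was Vim, with 3554 and 3874 CPM in cysteamine libraries, against 2288 and 2111 CPM in NT2 libraries (0.76 ± 0.26, adjusted p = 0.0779).

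Within cysteamine libraries the loss was uneven between the chains. Col1a2 over Col5a2 was 0.740 and 0.757 in cysteamine libraries, against 1.90 and 1.77 in NT2 libraries. Col1a2 over Col1a1, its partner chain in type I collagen, was 0.345 and 0.311 in cysteamine libraries, 0.485 and 0.352 in rescue libraries and 0.283 and 0.334 in knockdown libraries, against 0.808 and 0.765 in NT2 libraries. The 2 chains of type I collagen, needed in a fixed proportion in the protein, differed in their transcript balance between these groups. For type V, Col5a2 over Col5a1 was 0.907 and 1.15 in rescue libraries and 1.09 and 0.731 in knockdown libraries, against 2.76 and 2.75 in NT2 libraries, while cysteamine libraries had 2.62 and 2.43. Knockdown and rescue libraries were thus far below NT2 libraries in both ratios, and cysteamine libraries in that of type I, with only a small gap in that of type V. The other untreated group differed from NT2 as well. NT libraries had 0.719 and 0.429 for Col1a2 over Col1a1, which the rescue overlapped, and 1.6 and 1.75 for Col5a2 over Col5a1, above the knockdown and the rescue.

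**Figure D3:**
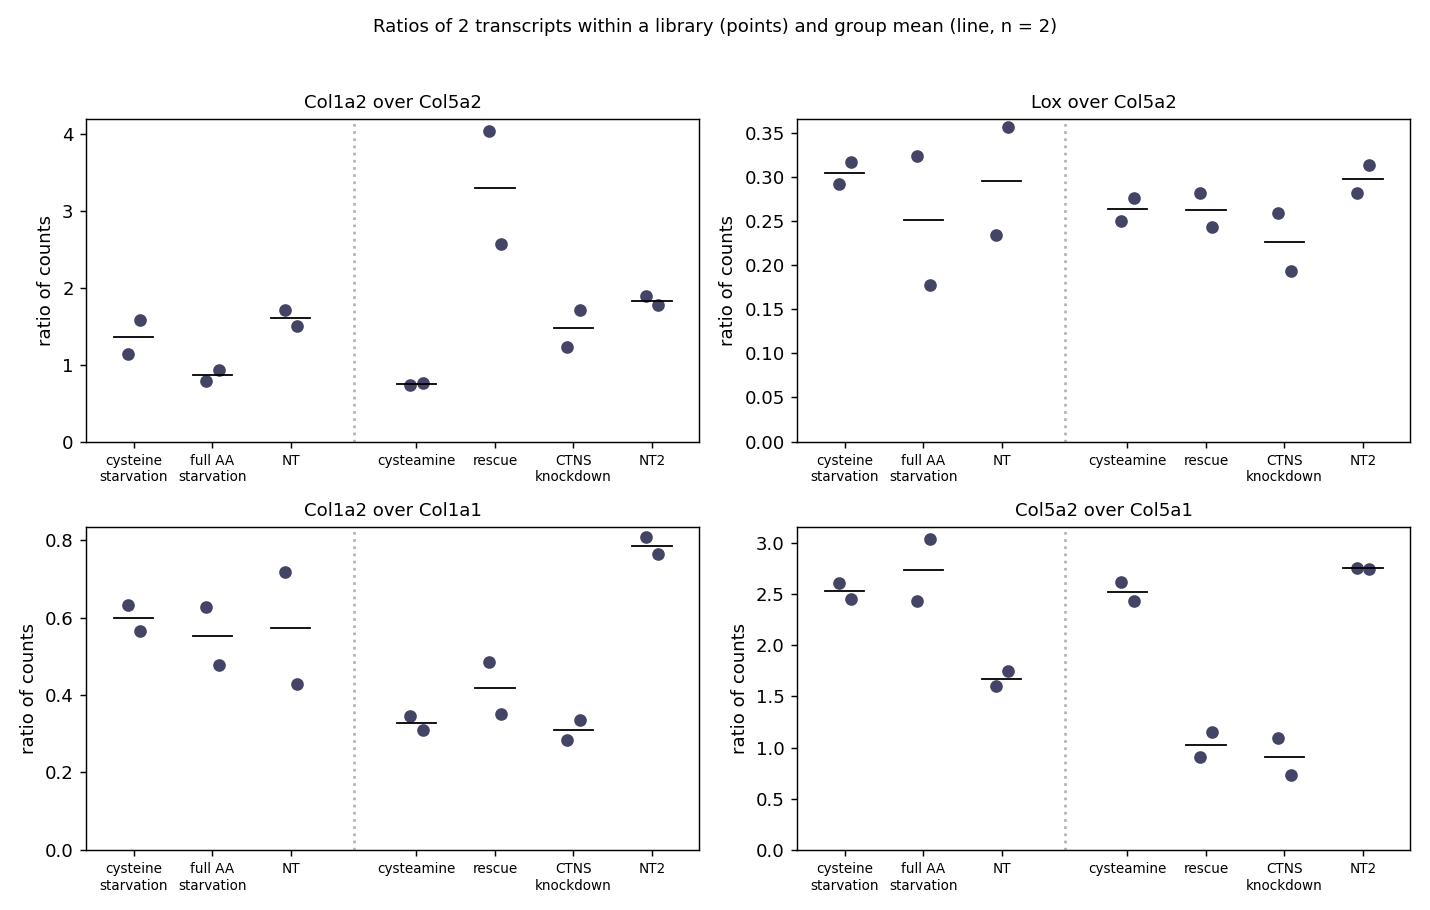
Ratios of the counts of 2 transcripts within a library, by group; points are libraries and the line is the mean of 2. Col1a2 over Col5a2 is highest in the rescue (4.04 and 2.57) and lowest in cysteamine (0.740 and 0.757), while Lox over Col5a2 shows no such split.

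The ratio of Lox to Col5a2 was 0.250 and 0.277 in cysteamine libraries, 0.282 and 0.243 in rescue libraries and 0.259 and 0.193 in knockdown libraries, against 0.282 and 0.314 in NT2 libraries. In the other experiment it was 0.292 and 0.317 in Cys libraries and 0.324 and 0.178 in AA libraries, against 0.234 and 0.357 in NT libraries. Knockdown and cysteamine libraries lay below NT2 libraries by little, and the rescue overlapped NT2 and both starvations overlapped NT. P4ha1 over P4hb, the 2 subunits of one enzyme, did not hold steady. It was 0.202 and 0.190 in cysteamine libraries, 0.340 and 0.457 in rescue libraries and 0.255 and 0.364 in knockdown libraries, against 0.068 and 0.090 in NT2 libraries. NT libraries, at 0.512 and 1.67 (21 over 41 and 10 over 6 counts), were above all of these. Cys libraries had 0.315 and 0.479, and AA libraries 2.24 and 1.30. P4ha1 is a tracking transcript, a label given for a low count in NT2 relative to NT, and P4hb is not. The part of the tracking share in this ratio was not tested.

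Starvation gave no call for these genes against NT. Cysteine starvation left Col1a2, Col5a2 and Lox above NT and P4ha1 below it, with no overlap of libraries for any of the 4, but 45.6% of all transcripts were apart in that sense. No transcript of the 1399 (0%) passed in edgeR, while 230 had an unadjusted p under 0.05 and DESeq2 called 67.

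Col1a2 had 4143 and 5608 CPM in Cys libraries, against 3940 and 2057 CPM in NT libraries, a log2 fold change of 0.63 ± 0.35 (adjusted p = 0.384). The NT libraries differed nearly 2-fold from each other, and the fold change was 1.24 without the first and 0.30 without the second. Col5a2 had 3614 and 3555 CPM in Cys libraries, against 2292 and 1372 CPM in NT libraries. Its log2 fold change of 0.89 ± 0.30 (adjusted p = 0.148) passed with DESeq2 (0.0228) and without the first NT library (1.39, adjusted p = 0.0376).

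Lox had 1056 and 1127 CPM in Cys libraries, against 537 and 490 CPM in NT libraries. Both groups were tight and the mean in starved cells was 213% of NT, yet counts were as low as 5 in NT. The log2 fold change was 1.05 ± 0.29 (adjusted p = 0.0981) and stayed within 1.01 to 1.15 in the leave-one-out fits. It passed with library totals (1.73, adjusted p = 0.0228), where the median of all transcripts shifted to 0.70. P4ha1 had 380 and 576 CPM in Cys libraries, against 752 and 980 CPM in NT libraries. Its log2 fold change was -0.83 ± 0.46 (adjusted p = 0.380), beside a median of -1.16 for the tracking transcripts. The 7 other fibroblast markers summed to 28255 to 29615 CPM in Cys libraries, against 14107 to 21596 CPM in NT libraries, and the part of this sum was not tested.

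Full amino acid starvation against NT called 0% of the transcripts as well, with 109 at an unadjusted p under 0.05 and 0 by DESeq2. Col1a2 had 1838 and 2990 CPM in AA libraries, against 3940 and 2057 CPM in NT libraries, and the groups overlapped, while those of the other 3 did not, as for 30.9% of all transcripts. Its log2 fold change was -0.35 ± 0.38 (adjusted p = 0.830), and its sign turned without the first NT library (0.26). Col5a2 had 2314 and 3209 CPM in AA libraries, against 2292 and 1372 CPM in NT libraries, so that the nearest libraries were almost level (0.53 ± 0.32, adjusted p = 0.681). Lox had 749 and 572 CPM in AA libraries, against 537 and 490 CPM in NT libraries (0.30 ± 0.37, adjusted p = 0.911), with a change of sign to -0.064 under library totals. P4ha1 had 2586 and 1143 CPM in AA libraries, against 752 and 980 CPM in NT libraries (1.09 ± 0.42, adjusted p = 0.457). The first AA library alone stood more than 2-fold above the other 3.

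Cysteine starvation against full amino acid starvation compares the lack of cysteine with the lack of all amino acids. Here 15% of transcripts passed (12.4% lower, 2.57% higher), and P4ha1 was the 1 member that did. P4ha1 had 380 and 576 CPM in Cys libraries, against 2586 and 1143 CPM in AA libraries. Its log2 fold change was -1.92 ± 0.38 (adjusted p = 0.00473), beside a median of -1.76 for the tracking transcripts, which held 162 of the 174 transcripts that were lower. The tracking share was 37.6% and 57.5% in Cys libraries, against 82.8% and 78.7% in AA libraries, and its part was not tested. The call was lost without the first Cys library (0.107), without the first AA library (0.0895), in the fit of these 6 libraries alone (0.0577) and with library totals (0.0659).

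The other 3 transcripts were higher in Cys than in AA libraries, with no overlap, as for 53.8% of all transcripts, but none passed. The log2 fold change was 0.99 ± 0.36 for Col1a2 (adjusted p = 0.0774), 0.76 ± 0.28 for Lox (0.0819) and 0.36 ± 0.29 for Col5a2 (0.463). All 3 passed with library totals in place of TMM, under which the median of all transcripts shifted to 1.09 and 474 transcripts were called higher and 74 lower, against 36 and 174 with TMM. Col1a2 alone passed with DESeq2 (0.0369) and without the first (0.0249) or the second NT library (0.0251).

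Cysteamine and the knockdown have no library in common with removal of cysteine from the medium, so the difference between their effects was tested itself. The effect of cysteamine was lower than that of cysteine starvation for Col1a2 by 2.57 ± 0.48 on the log2 scale (adjusted p = 0.0147), for Lox by 1.87 ± 0.33 (0.0119) and for Col5a2 by 1.54 ± 0.40 (0.0366). Here 6.79% of all transcripts passed (2.36% lower, 4.43% higher). P4ha1, with a difference of 1.73 ± 0.56, did not pass (adjusted p = 0.0737). It passed with DESeq2 (0.0421) and without the first (0.0365) or second AA library (0.0356). The calls of the other 3 were lost together without the first (adjusted p = 0.0623 to 0.127) or second NT2 library (0.0562 to 0.0994) or without the first cysteamine library (0.0680 to 0.118). That of Col5a2 was lost in a further 7 of the 14 leave-one-out fits.

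The effect of the knockdown differed from that of cysteine starvation for all 4 transcripts, where 19.2% of all did (7.15% lower, 12% higher). The difference in log2 fold change was -3.88 ± 0.36 for Lox, the lowest of all 1399 (adjusted p = 1.19e-05). For Col1a2 it was -3.47 ± 0.49 (0.000337) and for Col5a2 -3.38 ± 0.41 (0.000192). P4ha1 differed by 2.14 ± 0.57 (0.0142), beside a median of 2.52 for the tracking transcripts, and did not pass with library totals (0.0801) or without the first Cys (0.0754), first NT2 (0.0541) or second knockdown library (0.0642). These differences rest on the assumption about which untreated group belongs to which treatment. NT and NT2 themselves differed in level: Col1a2 averaged 2998 ± 1331 CPM in NT and 6024 ± 714 CPM in NT2 (SD, n = 2), and P4ha1 866 ± 161 CPM in NT and 150 ± 33.6 CPM in NT2. With the untreated groups exchanged, the knockdown still gave a fall of Col1a2, Col5a2 and Lox, while P4ha1 turned to -1.14.

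By level, the groups ran for Lox from Cys (1091 ± 49.7 CPM, SD, n = 2) through NT2, AA, cysteamine, NT and rescue to the knockdown (133 ± 46.1 CPM), with no overlap between neighbours. In the 7 comparisons, 30.9% to 71.8% of all transcripts were apart in that sense. The lowest cysteamine library (544 CPM) was almost level with the highest NT library (537 CPM), and NT rests on 15 and 5 counts. For Col5a2 the order was Cys, NT2, AA, cysteamine, NT, rescue and knockdown, the same as for Lox, with overlap between NT2 and AA and between cysteamine and NT. For Col1a2 it was NT2, Cys, NT, rescue, AA, cysteamine and knockdown, with overlap between NT2 and Cys and among NT, rescue and AA. P4ha1 ran from AA (1865 ± 1020 CPM) through NT, rescue, Cys, knockdown and cysteamine to NT2 (150 ± 33.6 CPM). Its overlaps were between rescue and Cys, between Cys and knockdown and between knockdown and cysteamine. Levels across the 2 experiments share the TMM scaling and differ in depth and tracking share, so this order is a description.

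The remaining genes of fibre making, chosen by name, were fibrillar collagens, enzymes and chaperones of hydroxylation and folding, secretion factors, procollagen processing proteins and lysyl oxidases. Of 47 names besides the 4 members, 11 were listed, none of them a tracking transcript. A gene with no count in any 1 library is not listed, so these are the abundant ones. In the knockdown 8 of the 11 fell, where 13.2% of all transcripts did, and none rose, with all 11 log2 fold changes below 0 and a median of -0.88, beside 0.09 for all 1399 transcripts. Each of the other 3 fibrillar chains fell. Col3a1, the chain of type III collagen, was at 490 and 393 CPM in knockdown libraries, against 2174 and 1854 CPM in NT2 libraries (-2.18 ± 0.28, adjusted p = 7.47e-05).

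Col1a1, the major type I chain, was at 2795 and 2676 CPM in knockdown libraries, against 8077 and 7218 CPM in NT2 libraries (-1.48 ± 0.36, adjusted p = 0.00582). Its groups were far apart, and the fall was smaller than that of Col1a2. Among the enzymes and chaperones, Serpinh1, the collagen chaperone Hsp47, fell by 0.98 ± 0.25 on the log2 scale (adjusted p = 0.00766) and P4hb by 0.66 ± 0.24 (0.0439). P4hb thus fell where P4ha1 rose. Pcolce, which enhances the trimming of procollagen, fell by 1.48 ± 0.28 (0.00119), the secretory coat protein Sec31a by 0.92 ± 0.23 (0.00799) and Loxl2, a relative of Lox, by 0.76 ± 0.26 (0.0384). The count of 8 dropped to 2 without the first NT2 library, to 3 without the first and 5 without the second knockdown library, to 6 or 7 without any other, and to 2 with NT in place of NT2 as the control.

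In the rescue against NT2, where 12.9% of all transcripts were lower, 5 of the 11 were (Col3a1, Col5a1, Serpinh1, Sec31a and Loxl2). None was higher. Beside a median of -0.0055 for all transcripts, that of the 11 was -0.57. Leave-one-out fits called 1 (without the second rescue library) to 4 of them, RLE scaling 3, a fit without the tracking transcripts 2, and NT as the control 0. In the rescue against the knockdown 0 of 11 passed, where 0.643% of all transcripts did. Of the 11, 7 were above 0 and the median was 0.23, beside 0.0081 for all transcripts. Col1a1 had a log2 fold change of 1.19 ± 0.36 there, with an adjusted p of 0.228. In cysteamine 1 of 11 was called, Col3a1 (-0.84 ± 0.25, adjusted p = 0.0444), a call lost in each of the 8 leave-one-out fits, with all 11 below 0 and a median of -0.52, beside 0.13. Of all transcripts, 5% were lower in cysteamine. Other settings called more of the 11, 2 with DESeq2, 3 with a replicate block or a mean count of at least 20, 5 in the fit of the 8 libraries alone and 6 without the tracking transcripts. Library totals or NT as the control called 0. Neither starvation gave a call among the 11, nor did the comparison of the 2 starvations, in which all 11 were above 0 and the median was 0.73, beside 0.05 for all transcripts. With library totals 10 of the 11 were called higher there.

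**Figure D4:**
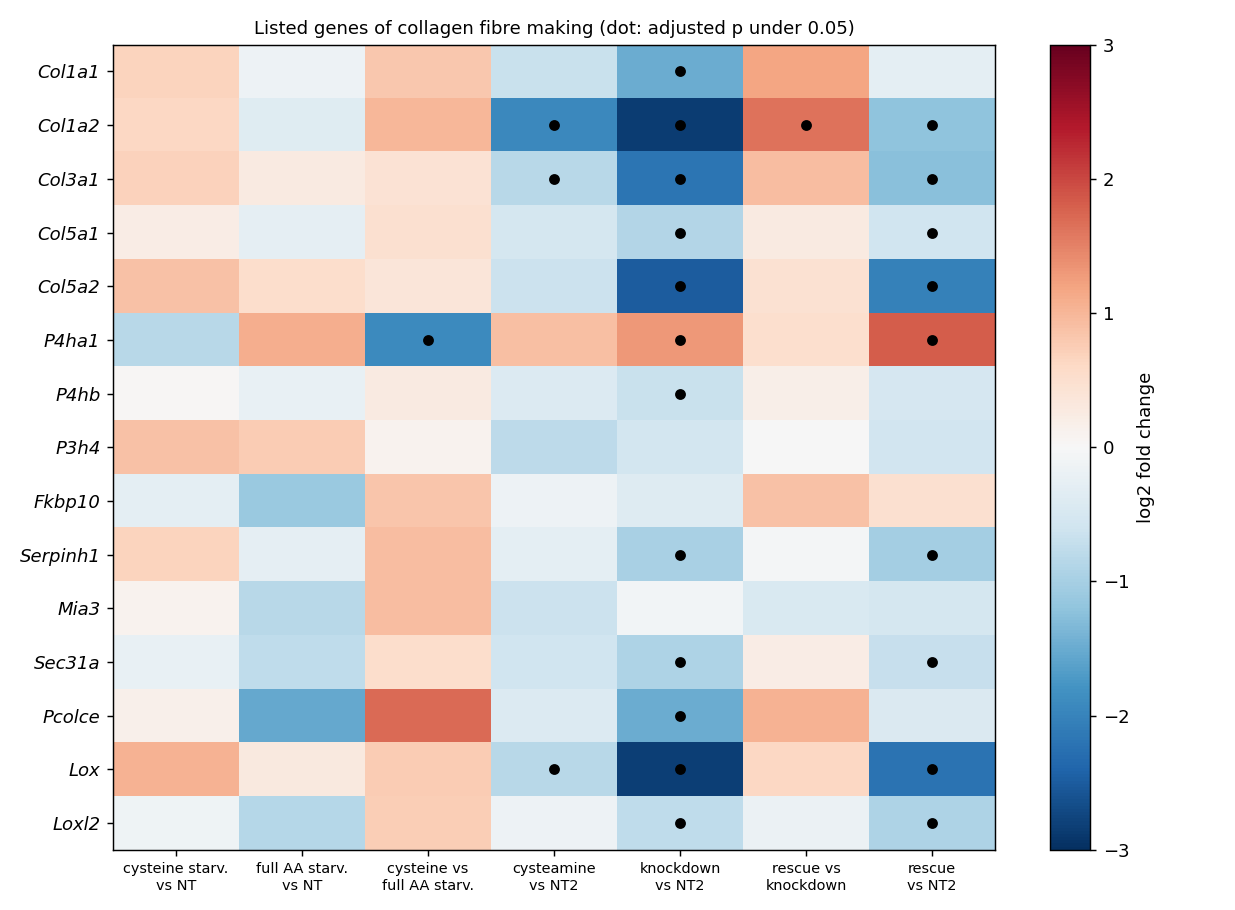
Log2 fold change of the 15 listed genes of collagen fibre making, the 4 transcripts included, in the 7 comparisons; red is higher and blue lower in the first-named group, and a dot marks an adjusted p under 0.05. In the knockdown 11 of the 15 fell and P4ha1 rose.

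Proteins that sit on or beside the fibrils went a similar way in the knockdown. Of 17 names 6 were listed, and 4 fell (Thbs1, Thbs2, Sparc and Fn1), where 13.2% of all transcripts did, and none rose. In the rescue against NT2 the same 4 were lower, where 12.9% of all were, and Postn was higher (1.54 ± 0.42, adjusted p = 0.0108). Thbs1, a secreted adhesive glycoprotein, had a log2 fold change of -2.43 ± 0.23 (adjusted p = 5.74e-06) in the knockdown and of 1.69 ± 0.27 (0.00806) in the rescue against the knockdown. Postn, a tracking transcript with 4 counts in the knockdown, was the other of the 6 that rose in the rescue against the knockdown (3.01 ± 0.58, adjusted p = 0.0316). Of all transcripts, 0.643% rose there. None of the 6 passed in cysteamine.

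Other collagens had 6 of 10 names listed, and 3 fell in the knockdown (Col6a2, Col6a1 and Col4a1), where 13.2% of all transcripts did. Col6a1 and Col6a2, chains of the beaded type VI collagen, rose in the rescue against the knockdown, by log2 fold changes of 1.10 ± 0.23 (adjusted p = 0.0422) and 1.35 ± 0.29 (0.0424), as near to the threshold as Col1a2, in the comparison where leave-one-out fits called 1 to 4 of all transcripts. Col6a3, the third chain listed, did not follow them against NT2. It had 0.65 ± 0.29 in the knockdown (adjusted p = 0.0924) and was higher in the rescue (1.55 ± 0.27, adjusted p = 0.000529), where 18.7% of all transcripts were. Cysteamine lowered 2 of the 6 listed, where 5% of all transcripts were lower. The log2 fold changes were -1.17 ± 0.20 for Col6a1 (0.00200) and -1.40 ± 0.21 for Col6a2 (0.000705). Of collagen turnover genes 3 of 10 were listed, and Timp3, an inhibitor of matrix proteases, was the 1 that fell in the knockdown (-1.77 ± 0.25, adjusted p = 0.000141), where 13.2% of all transcripts did. Timp3 (1.17 ± 0.33, adjusted p = 0.0294) and its relative Timp2 (1.04 ± 0.34, 0.0494) were higher in cysteine than in full amino acid starvation, where 2.57% of all transcripts were.

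Genes that supply proline and glycine, the commonest residues of collagen, had 3 of 9 names listed. Aldh18a1, the first enzyme of proline synthesis from glutamate, fell in cysteamine (-1.10 ± 0.26, adjusted p = 0.0150) and in the knockdown (-1.04 ± 0.29, 0.0138), while Phgdh and Shmt2 passed in neither. Lower calls took in 5% of all transcripts in cysteamine and 13.2% in the knockdown. P4ha1 and Lox are known targets of the hypoxia-inducible factor, and of 13 names of that kind 3 were listed. In the knockdown 1 of the 3, the glycolytic enzyme Eno1, fell (-0.70 ± 0.22, adjusted p = 0.0253), where 13.2% of all transcripts did, and none rose. Vegfa rose in the rescue against NT2 (1.30 ± 0.26, 0.00130), where 18.7% of all transcripts did. Of the 3, 1 was higher in cysteine than in full amino acid starvation, where 2.57% of all transcripts were.

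Likeness of pattern was measured by Pearson's r of log2 CPM over the 14 libraries, centred within each experiment, against 896 transcripts with a mean count of at least 20. The points share scaling, depth and treatments, so r is a description. Col5a2 was most like Ppfibp1 (r = 0.97), Lox (0.96) and Slc18a2 (0.95), and Lox most like Col5a2, Slc18a2 (0.93) and Vcl (0.92). Col1a2 was most like Slit3 (0.93), Smpd3 (0.90) and Col1a1 (0.90), and had lower values with Lox (0.72) and Col5a2 (0.71). P4ha1 was most like Traf7 (0.97), Pcnx (0.96) and Edem3 (0.95), all tracking transcripts, and its r with the other 3 members was -0.64 to -0.59.

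**Figure D5:**
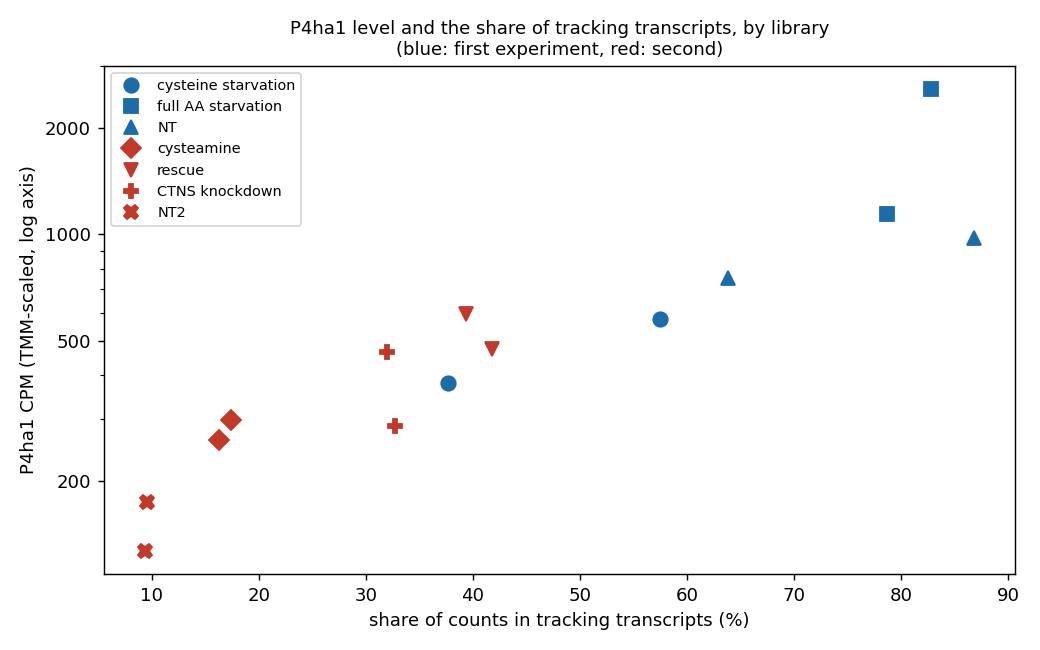
P4ha1 level (TMM-scaled CPM, log axis) against the share of a library's counts in tracking transcripts (percent), 1 point per library. NT2 libraries are lowest in both, at 127 and 174 CPM and shares of 9.38% and 9.59%, and AA and NT libraries are highest in share.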

How the data were processed

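RNA of mouse embryonic fibroblasts was extracted with TRIzol, selected with oligo(dT) beads, size-selected on a gel, tailed, ligated to adapters and amplified by PCR, per the labels' protocols; no molecular identifiers are described. The authors deposited 1 table per library with whole-number counts per Ensembl transcript, although the tables are named for CPM. The submitters' processing notes name the build GRCm39 and the tools STAR 2.7.10a, Bowtie 1.2.3, cutadapt 2.8 and bcl2fastq 2.20.0.422, with no role or order; no source used here gives the counting tool, strand setting or annotation. All libraries list the same 1399 transcripts, with a smallest count of 1. Symbols came from GENCODE M21, which names 1385 of them and not the other 14.

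The counts were fitted with edgeR 4.0.16 (R 4.3.3), TMM scaling and the quasi-likelihood test, with all 14 libraries, 7 group means and 7 residual degrees of freedom; p-values were adjusted by Benjamini-Hochberg over all transcripts, with a threshold of 0.05. The SE is the log2 fold change divided by the square root of F. It can fall below the error of counting alone, as it did for Lox in most comparisons. The SE and intervals are then too narrow. CPM, ratios and intervals cover counting and library error only as far as 2 libraries per group show it. Alternatives were RLE scaling, library totals, DESeq2 1.42.0, a mean count of at least 20, a replicate block, each experiment alone, exchanged untreated groups, no tracking transcripts and each library left out. Genes named are the 4 members and, of each gene list, up to 3 with the smallest p in a comparison; Fkbp10, P3h4 and Mia3 fill the list of fibre making. The result of 1 list is not reported here. Members and lists were chosen with earlier results of these data known.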

Additional observations from a re-analysis of the deposited data

Results flagged for a closer look

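A difference between the effects of 2 treatments in separate sets of libraries, tested as a contrast by edgeR's quasi-likelihood test, drew attention to 7 results. The effect of cysteamine minus that of cysteine starvation was -2.57 for Col1a2 (adjusted p = 0.0147), -1.54 for Col5a2 (0.0366) and -1.87 for Lox (0.0119), on the log2 scale. The effect of the knockdown minus that of cysteine starvation was -3.47 for Col1a2 (0.000337), -3.38 for Col5a2 (0.000192), -3.88 for Lox (1.19e-05) and 2.14 for P4ha1 (0.0142). In each case the effects being compared have opposite signs. The cysteine starvation effect did not pass by itself for any of the 4, and the first and second set of libraries also differ in depth and in tracking share, whose part was not tested.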

How the results depend on the processing

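The falls of Col1a2, Col5a2 and Lox in the knockdown kept their call in all alternatives. Leaving out 1 library at a time gave 0 to 112 transcripts called in cysteine starvation (members 0 to 1), 0 to 20 in full amino acid starvation (members 0), 18 to 243 between the starvations (members 0 to 2), 15 to 120 in cysteamine (members 0 to 2), 191 to 422 in the knockdown (members 3 to 4), 1 to 4 in the rescue against the knockdown (members 0), 257 to 415 in the rescue against NT2 (members 3 to 4), 0 to 153 for the cysteamine difference (members 0 to 4) and 183 to 293 for the knockdown difference (members 3 to 4); Col1a2 in full amino acid starvation ranged over -0.78 to 0.26. RLE scaling called 2 in cysteine starvation. Library totals called 31 in cysteine starvation (member Lox, 1), 548 between the starvations (members 3), 93 in cysteamine, 2 in the rescue against the knockdown (members 0), 178 for the cysteamine and 451 for the knockdown difference, and gave -0.064 for Lox in full amino acid starvation. They shifted the median of all transcripts to -0.74 and -0.87 in the 2 differences, and higher and lower calls became 32 and 61 in cysteamine (77 and 70 with TMM), 199 and 259 in the rescue against NT2 (261 and 180), 31 and 147 in the cysteamine difference (62 and 33) and 140 and 311 in the knockdown difference (168 and 100). DESeq2 called 67 in cysteine starvation (member 1), 2 members between the starvations and 19 transcripts in the rescue against the knockdown. A mean count of at least 20 left 117 between the starvations. Each experiment alone called 87 between the starvations (members 0), 375 in cysteamine (members 4) and 58 in the rescue against the knockdown. The cause of these moves was not tested.

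With the untreated groups exchanged, 248 transcripts were called in cysteine starvation (members 1), 459 in full amino acid starvation (members 2), 203 in the knockdown, 356 in cysteamine and 155 in the rescue (members 2, Col5a2 and Lox). Signs then turned for Col1a2 (-0.31) and P4ha1 (1.63) in cysteine starvation, Col5a2 (-0.23) and Lox (-0.60) in full amino acid starvation, Col5a2 (0.11), Lox (0.072) and P4ha1 (-1.55) in cysteamine, and P4ha1 against NT in place of NT2 for knockdown (-1.14) and rescue (-0.63). Without the tracking transcripts, P4ha1 among them, the calls were 18 between the starvations (members 0), 327 in cysteamine, 35 in the rescue against the knockdown, 287 in the rescue against NT2, and 21 and 51 for the 2 differences. Higher and lower calls then became 172 and 198 in the knockdown (246 and 185 with all transcripts), 28 and 7 in the rescue against the knockdown (9 and 0), 136 and 151 in the rescue against NT2 (261 and 180), 3 and 18 in the cysteamine difference (62 and 33) and 6 and 45 in the knockdown difference (168 and 100). The 1058 transcripts tested exclude those chosen for being low in NT2 relative to NT.

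Replicate numbers are only 2 per experiment and the labels tie them to nothing, so they do not pair the libraries. Same-numbered libraries deviated together with correlations of -0.21 to 0.29 in the first and 0.09 to 0.28 in the second experiment. With a replicate block, 80 transcripts were called in cysteine starvation, 269 in cysteamine and 143 for the cysteamine difference, and P4ha1 passed in cysteamine (0.89, adjusted p = 0.0427); no other call of the 4 transcripts changed. Depth limits the precision of Lox, with 5 to 64 counts in the first experiment and 11 to 22 in knockdown and rescue libraries, and of P4ha1, with 10 to 59 throughout.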
